A study of Mus musculus with 8 samples.

Results

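The expressed Zfp genes of mouse pro-B cells were examined with and without menin. They were taken as the genes whose platform symbol is Zfp followed by a number, with an added letter or an l-suffix allowed and without Zfp521 and Zfp423. Of several probe sets for a symbol, the one with the highest mean over all 8 arrays stood for the gene, and the genes were selected on their measured level: at least 4 arrays had to have a log2 value of 6 or more. This left 239 of 329 symbols (72.6%), among 11885 genes tested in all. That cut used the levels of all arrays and took no account of group. Of the 239 genes, 227 reached the cut on all 8 arrays, and 1, Zfp446, reached it through the menin-deficient arrays alone.

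Zfp is a naming stem for zinc finger proteins, in which a zinc ion held by cysteine and histidine residues folds a short stretch of protein into a finger. Most are DNA-binding proteins with fingers in tandem, and in many of these an amino-terminal KRAB box recruits the corepressor Trim28 and the histone methyltransferase Setdb1, which silence transposable elements and imprinted loci. Others, the family of Zfp36 above all, bind RNA. Menin, the product of Men1, joins the MLL histone methyltransferases on chromatin, and the comparison asked which genes depend on it in early B-cell progenitors.

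The cells were pro-B cells of Fraction B, a sorted B220+ CD43+ HSA+ BP-1- stage of B-cell development. The 4 control mice were MenF/F, with floxed Men1 and no Cre, and the 4 menin-deficient mice were Rag1-cre;MenF/F, with the same floxed gene and a Cre named for Rag1, a gene of lymphoid progenitors. The mice were 2 to 3 weeks old by the sample labels and 3 weeks old by the series description. Each mouse gave 1 Affymetrix array with amplified RNA. Since floxed Men1 was in all 8 mice and Cre in the menin-deficient mice alone, a difference cannot be told apart from one caused by Cre itself.

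Men1 was 2.62-fold lower in menin-deficient cells (9.54 against 8.15, limma adjusted p = 0.00391), although no source used here says whether its probe set lies in the deleted part. Array medians lay between 3.29 and 3.50, and each array had its lowest value, 2.08, at 36.1% to 36.7% of its probe sets. Of 10 tested pro-B markers, Dntt and Igll1 rose, Rag1 fell, and all had group means above 9. Markers of other blood cells moved with the group: 4 of 5 tested T-cell markers, 2 of 5 NK-cell, 2 of 8 myeloid and 2 of 6 plasmacytoid dendritic cell markers rose, and 2 of 5 plasma cell markers fell while 1 rose. The sum of the log2 values ran from 38.0 to 39.3 in control arrays and from 45.1 to 46.3 in menin-deficient arrays for the 8 T-cell markers on the array, from 33.4 to 34.6 and from 37.0 to 40.2 for 5 NK-cell markers, from 69.1 to 73.7 and from 70.1 to 78.1 for 8 myeloid markers, from 37.3 to 39.4 and from 42.9 to 46.1 for 6 plasmacytoid markers, and from 49.3 to 52.5 and from 47.6 to 49.4 for 5 plasma cell markers. None of 2 tested erythroid markers passed, and their sums overlapped (15.6 to 17.3 and 15.6 to 17.6 for 3 on the array). The T-cell risers, with control and menin-deficient means, were Cd3g (3.95 and 4.73), Cd5 (6.76 and 8.09), Lat (8.93 and 10.7) and Thy1 (7.24 and 9.89). The other risers were Ncr1 and Nkg7 of NK cells, Ccr2 and Lyz2 of myeloid cells and Ccr9 and Irf7 of plasmacytoid cells. Of the plasma cell markers Jchain and Sdc1 fell and Mzb1 rose. The T-cell genes Cd3d, Cd3e and Cd4, the NK-cell gene Klrk1, the myeloid gene Itgam, the plasmacytoid gene Tlr9 and the erythroid gene Hba-a1 had means under 3 over all arrays. The part of these other cells in the results below was not tested. Fewer cells of a type and less RNA per cell cannot be told apart in such bulk samples.

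Of the 239 Zfp genes, 15 rose and 20 fell in menin-deficient cells at a limma adjusted p under 0.05, and 204 did not pass. The 35 calls are 14.6% of the genes. Over all genes tested 21.3% were called, 16.2% higher and 5.17% lower, against 6.28% and 8.37% here. The background includes dimmer genes than the level cut allows. Among the 9477 genes tested with a mean of 6 or more, 24.7% were called, 18.5% higher and 6.23% lower. The changes were small, from 1.17-fold to 2.03-fold (median 1.43) for the rises and from 1.22-fold to 2.07-fold (median 1.59) for the falls. The median over all 239 was a log2 difference of 0.067, against 0.108 over all genes tested. The 10th and 90th percentiles were -0.39 and 0.43, against -0.28 and 0.57. The groups did not overlap for 44 genes (18.4%), all 15 rises and 17 of the falls among them, where 26.3% of all genes tested had groups apart, 20.3% with menin-deficient higher and 6.06% with it lower. The typical spread was wider, with a median SD of 0.215 in control and 0.183 in menin-deficient arrays against 0.164 and 0.154 over all genes tested. For the 9477 genes with a mean of 6 or more the median difference was 0.134 and 29.8% had groups apart. Their median SDs were 0.169 in control and 0.156 in menin-deficient arrays.

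**Figure D1:**
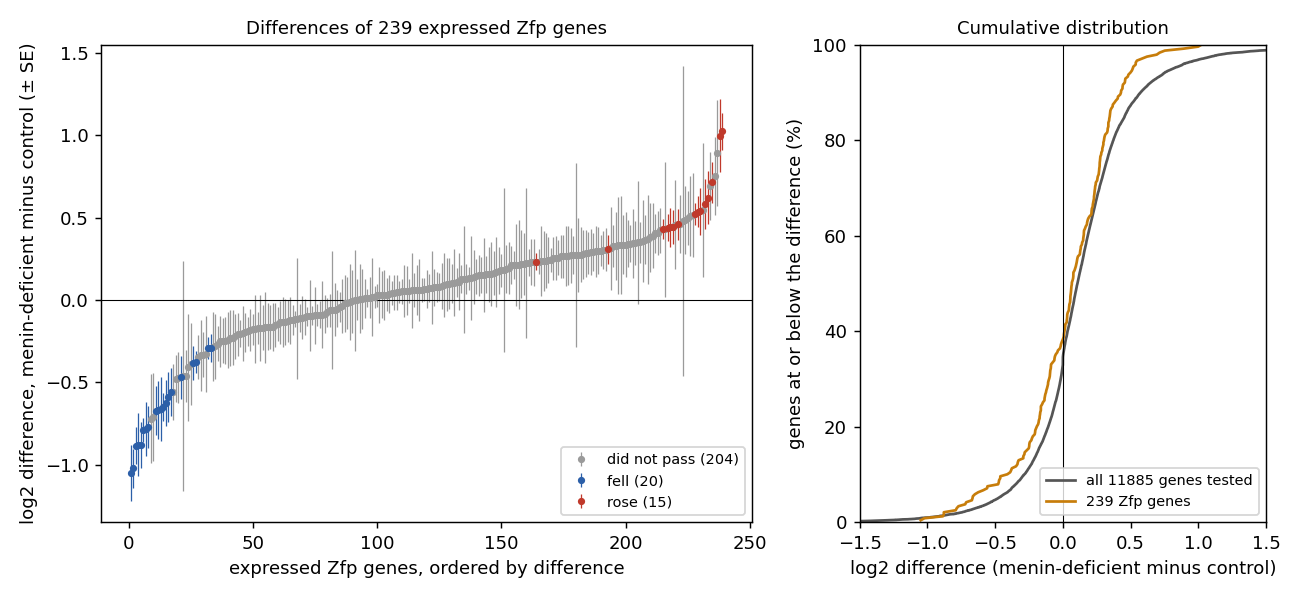
Left, log2 difference (menin-deficient minus control, ± SE of the limma fit) of each of the 239 expressed Zfp genes in order of size, with the 15 that rose in red and the 20 that fell in blue. Right, the percentage of genes at or below each difference, for the Zfp genes and for all 11885 genes tested, whose medians are 0.067 and 0.108.

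The split between rises and falls was not stable. When each array was centred on its median tested gene, which took 0.13 off every log2 difference, 7 Zfp genes were higher and 26 lower, and over all genes 7.67% were higher and 8.17% lower (15.8% in all). Of the 35 calls, 27 kept their direction and their call. These were all 20 falls, which such a shift enlarges, and 7 of the 15 rises. The count of calls also fell when an array was left out, to 22 without control replicate 1, 20 without menin-deficient replicate 2 and 23 when menin-deficient replicate 4 was the one removed. Over all genes tested the calls fell as well, from 2536 to 1622, 1413 and 1804 in the same fits. Without menin-deficient replicate 1 the Zfp count stayed at 35, but 20 were higher and 15 lower.

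Zfp287 rose most, on chromosome 11. Its log2 values on probe set 1436220_at were 8.37, 8.02, 7.95 and 8.24 in control and 9.28, 9.27, 9.02 and 9.12 in menin-deficient mice, each in the order of replicates 1 to 4, as in all such lists here. Every menin-deficient array lay above every control array. The difference was 1.02 (SE 0.11, 2.03-fold, limma adjusted p = 0.00252).

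Zfp180, a KRAB protein gene on chromosome 7, fell most. It read 9.79, 9.73, 9.64 and 9.22 in control and 8.69, 8.17, 8.71 and 8.62 in menin-deficient replicates 1 to 4 (log2, probe set 1428170_at). The groups stood apart, with menin-deficient replicate 2 the lowest, and the difference was -1.05 (SE 0.17, 2.07-fold lower, limma adjusted p = 0.00799). Zfp229, on chromosome 17, read 10.11, 9.96, 10.22 and 9.84 in control and 8.84, 8.86, 9.22 and 9.11 in menin-deficient replicates. It was 2.03-fold lower (difference -1.02, SE 0.12, limma adjusted p = 0.0031), again with no overlap.

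Zfp809 encodes a KRAB protein that recognises the primer-binding site of murine leukaemia viruses and silences them. Its values were 11.93, 12.14, 11.84 and 12.33 in control and 10.95, 11.08, 11.41 and 11.29 in menin-deficient replicates 1 to 4 (log2, probe set 1440890_a_at). The lowest control array lay above the highest menin-deficient array. The fall was 1.84-fold (difference -0.88, SE 0.14, limma adjusted p = 0.00768). Zfp317, which like Zfp809 lies on chromosome 9, had the tightest control group of the named falls (9.04, 9.0, 9.04 and 9.03) and read 8.34, 8.05, 8.35 and 8.20 in menin-deficient replicates. It was 1.73-fold lower (difference -0.79, SE 0.07, limma adjusted p = 0.00156).

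Zfp287, Zfp180, Zfp229, Zfp317 and Zfp809 were the 5 genes whose call held under each of the 19 alternative fits tried, centring and the removal of any 1 array included. None of the 5 had another probe set with a mean of 6 or more, so each rests on 1 probe set. Zfp180, Zfp229, Zfp317 and Zfp809 have no other probe set, so averaging probe sets could not change their values. Leaving out the _x_at and _s_at types described below could not either, since theirs are of other types. Centring takes 0.13 off every difference and enlarged these 4 falls, so it could hardly lose them. The averaging was the only alternative that lost the calls of Zfp664, Zfp704, Zfp91 and Zfp955a. For Zfp287 the average with its dim probe sets gave a difference of 0.46 (limma adjusted p = 0.0441). The promoters of the 5 genes are shown because their calls held throughout. They run from 250 bases before to 50 after the start of the gene in RefSeq (GRCm38.p6), 5′ to 3′ on the strand of the gene, with CG dinucleotides in capitals. Zfp317 and Zfp809 have 2 starts in the table, of which the one listed first is given.
Zfp287 (chr11:62731847-62732146, minus strand): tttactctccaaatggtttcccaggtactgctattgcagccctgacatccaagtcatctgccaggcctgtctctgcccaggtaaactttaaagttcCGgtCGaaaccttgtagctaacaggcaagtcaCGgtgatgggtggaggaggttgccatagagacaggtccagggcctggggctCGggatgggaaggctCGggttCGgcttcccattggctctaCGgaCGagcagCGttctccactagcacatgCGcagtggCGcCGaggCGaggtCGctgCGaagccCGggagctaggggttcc
Zfp180 (chr7:24081647-24081946, plus strand): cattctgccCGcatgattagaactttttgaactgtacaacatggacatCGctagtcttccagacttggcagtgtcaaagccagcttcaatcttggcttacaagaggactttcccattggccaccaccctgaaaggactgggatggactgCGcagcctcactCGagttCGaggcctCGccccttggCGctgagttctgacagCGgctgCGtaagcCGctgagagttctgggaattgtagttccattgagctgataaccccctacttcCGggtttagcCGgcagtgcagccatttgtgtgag
Zfp229 (chr17:21733474-21733773, plus strand): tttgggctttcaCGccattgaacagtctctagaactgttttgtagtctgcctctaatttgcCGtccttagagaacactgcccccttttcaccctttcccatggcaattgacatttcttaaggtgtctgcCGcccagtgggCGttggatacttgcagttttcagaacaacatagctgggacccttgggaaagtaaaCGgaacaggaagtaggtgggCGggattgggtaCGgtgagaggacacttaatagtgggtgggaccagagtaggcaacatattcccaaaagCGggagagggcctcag
Zfp317 (chr9:19621841-19622140, plus strand): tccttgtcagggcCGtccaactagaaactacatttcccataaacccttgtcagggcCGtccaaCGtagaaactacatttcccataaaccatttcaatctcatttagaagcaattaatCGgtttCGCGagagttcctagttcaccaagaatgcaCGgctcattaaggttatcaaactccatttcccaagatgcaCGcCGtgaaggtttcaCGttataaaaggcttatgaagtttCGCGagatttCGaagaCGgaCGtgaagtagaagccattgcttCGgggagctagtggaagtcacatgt
Zfp809 (chr9:22225453-22225752, plus strand): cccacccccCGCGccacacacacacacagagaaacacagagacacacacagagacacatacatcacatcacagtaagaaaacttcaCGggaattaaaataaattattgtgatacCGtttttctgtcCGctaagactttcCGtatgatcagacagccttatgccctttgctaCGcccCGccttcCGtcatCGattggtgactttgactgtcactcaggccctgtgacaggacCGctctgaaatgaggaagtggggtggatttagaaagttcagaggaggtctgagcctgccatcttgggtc
The counts of CG dinucleotides were 16 for Zfp287, 12 for Zfp180, 8 for Zfp229, 16 for Zfp317 and 11 for Zfp809.

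Promoters were found for 199 of the 239 genes. Their median count of CG dinucleotides was 16 (quartiles 10 and 22), against 21 (quartiles 12 and 28) for 9668 genes tested that have one. It was 15.5 for 12 rises, 16 for 18 falls and 16 for 169 genes that did not pass, so the 3 classes had nearly the same median. The ETS letters CCGGAAG, on either strand, were in 20.6% of the Zfp promoters and in 18.5% of those of all genes tested. For the cAMP response element TGACGTCA the shares were 4.02% and 3.19%, and for the YY1 letters AAGATGGCG 4.02% and 3.30%. Of the 5 promoters above, that of Zfp180 holds the ETS letters, and neither of the other motifs is in the 5.

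Beside Zfp287, the rises with the largest differences were Zfp467 and Zfp516. Zfp467, known for promoting adipocyte formation from marrow stroma, read 7.68, 7.92, 8.32 and 7.85 in control and 8.98, 8.59, 9.48 and 8.71 in menin-deficient replicates (log2, 2.00-fold, SE 0.22, limma adjusted p = 0.021). A dim second probe set rose as well, by 1.08 (2.78 to 3.87, limma adjusted p = 0.00374 in a fit of all probe sets separately). The main call was lost without control replicate 1 (difference 0.91, limma adjusted p = 0.0581) and without control replicate 4 (0.97, limma adjusted p = 0.0549). Zfp516, an activator of brown fat genes, read 6.90, 6.94, 7.15 and 7.04 in control and 7.46, 7.60, 7.85 and 7.99 in menin-deficient replicates. It rose 1.64-fold (limma adjusted p = 0.00983) on an _x_at probe set, whose probes can cross-hybridise. Its dim second probe set (4.05 in control) differed by 0.12.

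Smaller rises had well-separated groups. Zfp704 read 10.64, 10.67, 10.87 and 10.84 in control and 11.27, 11.26, 11.36 and 11.21 in menin-deficient replicates (1.43-fold, limma adjusted p = 0.00394). Its second probe set differed by 0.09. Zfp664 read 12.56, 12.65, 12.73 and 12.70 and then 12.97, 13.17, 13.06 and 13.16 (1.35-fold, limma adjusted p = 0.00536). In both genes the gap between the groups was wider than the range of either group. Zfp763 rose 1.45-fold, Zfp61 1.37-fold and Zfp764, a KRAB protein gene read on an _x_at probe set, 1.36-fold (limma adjusted p = 0.00983, 0.0164 and 0.0133). The calls of these 5 genes held without any 1 array, but that of Zfp61 was lost after centring.

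The other 7 rises were less firm. Zfp282, known for repressing a human T-cell leukaemia virus promoter, rose 1.45-fold, Zfp950 1.54-fold and Zfp446 1.5-fold. Zfp277, a Polycomb partner at the Cdkn2a locus, rose 1.36-fold, Zfp692 1.36-fold, Zfp946 1.24-fold and Zfp512 1.17-fold. Limma adjusted p ran from 0.0196 for Zfp512 to 0.0485 for Zfp946. After centring on the median tested gene none of the 7 passed. For Zfp512 the call was also lost without menin-deficient replicate 2 or 4 (differences 0.21 to 0.23, limma adjusted p 0.0502 to 0.0552). For Zfp692 it was lost without control replicate 1, 3 or 4 or menin-deficient replicate 2 or 4 (0.39 to 0.45, limma adjusted p 0.0501 to 0.0615). For Zfp282, Zfp950, Zfp446, Zfp277 and Zfp946 it was lost on leaving out any of 6 or 7 of the 8 arrays, with the differences staying above 0.25 or at it. Zfp446 passed the level cut through the menin-deficient arrays alone, so it had to differ.

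**Figure D2:**
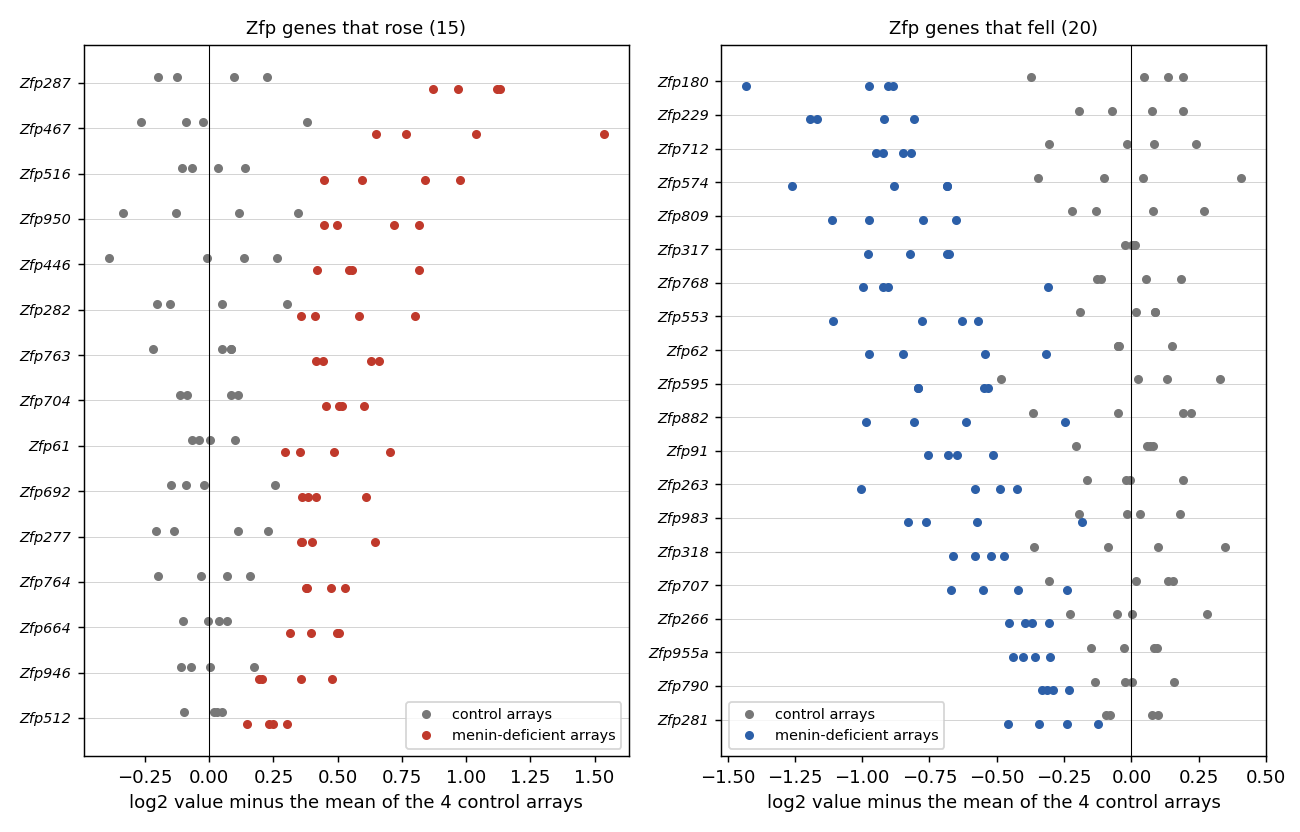
Log2 values of the 15 Zfp genes that rose (left) and the 20 that fell (right) on each of the 8 arrays, as the distance from the mean of the 4 control arrays of that gene. Control arrays are grey; the groups overlap in Zfp882, Zfp983 and Zfp707 and in none of the other called genes.

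Among the remaining falls Zfp712 was 1.85-fold lower, on an _x_at probe set. It read 10.14, 10.04, 10.30 and 9.75 in control and 9.24, 9.13, 9.11 and 9.21 in menin-deficient replicates (limma adjusted p = 0.00394). Without _x_at and _s_at probe sets, its other probe set gave a difference of 0.13 (limma adjusted p = 0.842). Over all genes tested 18.9% of those read on an _x_at probe set fell, against 3.77% on plain _at sets, and among the Zfp genes 1 of 10 and 15 of 208.

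Zfp553 read 11.71, 11.78, 11.78 and 11.50 in control and 10.92, 10.59, 11.06 and 11.13 in menin-deficient replicates (1.71-fold lower, SE 0.13, limma adjusted p = 0.00883). Its second probe set, dim in control (4.63), differed by -0.24. Zfp768 read 8.20, 8.51, 8.38 and 8.22 and then 7.41, 7.33, 8.02 and 7.43 (1.72-fold lower, limma adjusted p = 0.0171). In Zfp768 menin-deficient replicate 3 lay well above the other 3 arrays of its group, and without menin-deficient replicate 2 the call was lost (difference -0.71, limma adjusted p = 0.0513). Zfp574 was 1.84-fold lower (limma adjusted p = 0.0204), a call lost without control replicate 4 (-0.86, limma adjusted p = 0.0523) and without menin-deficient replicate 2 (-0.88, limma adjusted p = 0.057). Zfp62 was 1.59-fold lower (limma adjusted p = 0.0201), a call lost without menin-deficient replicate 4 (-0.61, limma adjusted p = 0.0519). Second probe sets of Zfp574 and Zfp62 differed the other way, by 0.23 (6.70 to 6.94) and 0.11 (9.68 to 9.79), and the mean of the probe sets gave -0.32 for Zfp574 and -0.28 for Zfp62, neither past the threshold.

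Zfp91, a ubiquitin ligase of noncanonical NF-kB signalling, was high in both groups. It read 13.61, 13.59, 13.32 and 13.59 in control and 13.01, 12.77, 12.85 and 12.88 in menin-deficient replicates (log2, probe set 1426326_at). The lowest control array stayed above the highest menin-deficient one, and the fall was 1.57-fold (difference -0.65, SE 0.08, limma adjusted p = 0.00406). A second probe set fell too, by -0.75 (limma adjusted p = 0.0367 in the fit of all probe sets), but another, with levels of 12.74 and 13.33, differed by 0.59 (limma adjusted p = 0.273). Zfp91 was the only one of the 239 genes within 10 Mb of Men1. Zfp408 was the only one within 10 Mb of Rag1 and differed by 0.02 (limma adjusted p = 0.888).

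Zfp318, needed in mature B cells to make IgD beside IgM, read 9.95, 9.68, 10.39 and 10.14 in control and 9.52, 9.38, 9.46 and 9.57 in menin-deficient replicates. It was 1.47-fold lower (SE 0.15, limma adjusted p = 0.035). All 4 of its other probe sets were lower as well, none past the threshold. Only the brightest of them (8.13 to 7.58, difference -0.55) had a mean of 6 or more. The rest were dim, the lowest (2.16 to 2.09) near the lowest value of the table. The call was lost on leaving out control replicate 1 or 4 or any menin-deficient array (differences -0.59 to -0.52, limma adjusted p 0.0642 to 0.0948). Zfp281, a regulator of pluripotency genes related to Zfp148, was 1.22-fold lower (limma adjusted p = 0.0494). Its second probe set differed by 0.31 the other way, the mean of both gave 0.01 (limma adjusted p = 0.947), and leaving out any array except menin-deficient replicate 4 lost the call (differences -0.32 to -0.24).

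Zfp955a fell 1.3-fold (limma adjusted p = 0.0099), without loss of the call on leaving out any array, and its second probe set differed by -0.78 (limma adjusted p = 0.197). Its neighbour with nearly the same name, Zfp955b, differed by -0.09 (limma adjusted p = 0.634), and probe sets of such close relatives may not tell them apart. Zfp263 fell 1.54-fold on an _s_at probe set, which can detect more than 1 transcript, but differed by -0.05 on a plain one, and the call was lost without control replicate 1 or 4 (-0.63 in both cases, limma adjusted p = 0.0549 and 0.053). Zfp790 fell 1.22-fold (limma adjusted p = 0.0211), lost without control replicate 1 or menin-deficient replicate 2 or 4 (-0.29 to -0.28, limma adjusted p 0.0538 to 0.0622), and its second probe set differed by 0.22. Zfp595, a KRAB protein gene, fell 1.59-fold, Zfp266 1.3-fold, Zfp882 1.58-fold, Zfp983 1.5-fold and Zfp707 1.39-fold, the last 3 with overlapping groups. The calls of these 5 genes were lost on leaving out any of 6 or 7 of the 8 arrays, with limma adjusted p up to 0.114. The differences then were -0.71 to -0.56 for Zfp595, -0.41 to -0.36 for Zfp266, -0.68 to -0.56 for Zfp882, -0.59 to -0.51 for Zfp983 and -0.49 to -0.40 for Zfp707, close to those with all arrays.

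Other probe sets of the called genes often did not show the same difference. Of the 35 genes, 18 had another probe set with a mean of 6 or more, 4 of the rises and 14 of the falls. By sign alone, all such probe sets went the same way as the main one in 2 of the 4 rises (Zfp277 and Zfp704) and in 5 of the 14 falls (Zfp263, Zfp318, Zfp595, Zfp882 and Zfp955a). The difference on them was small in Zfp277 (0.06), Zfp704 (0.09), Zfp263 (-0.05) and Zfp595 (-0.06). It was larger in Zfp318 (-0.55), Zfp882 (-0.43) and Zfp955a (-0.78). In the fit of all probe sets separately, another one passed in the same direction for 1 rise (Zfp467) and 1 fall (Zfp91). It passed in the opposite direction for Zfp950 (-0.27, limma adjusted p = 0.0485) and for Zfp707 (0.89, limma adjusted p = 0.0168). When all probe sets of a gene that passed the filter were averaged, 20 of the 35 calls were lost or turned. In 15 of the 20 the difference turned or shrank by over 1.5 times, as for Zfp266 (-0.38 to -0.03) and Zfp790 (-0.29 to -0.04). In the other 5 it did not: Zfp664 (0.43 to 0.34), Zfp318 (-0.56 to -0.42), Zfp882 (-0.66 to -0.55), Zfp955a (-0.38 to -0.58) and Zfp946, which has no other probe set (0.31 in both).

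**Figure D3:**
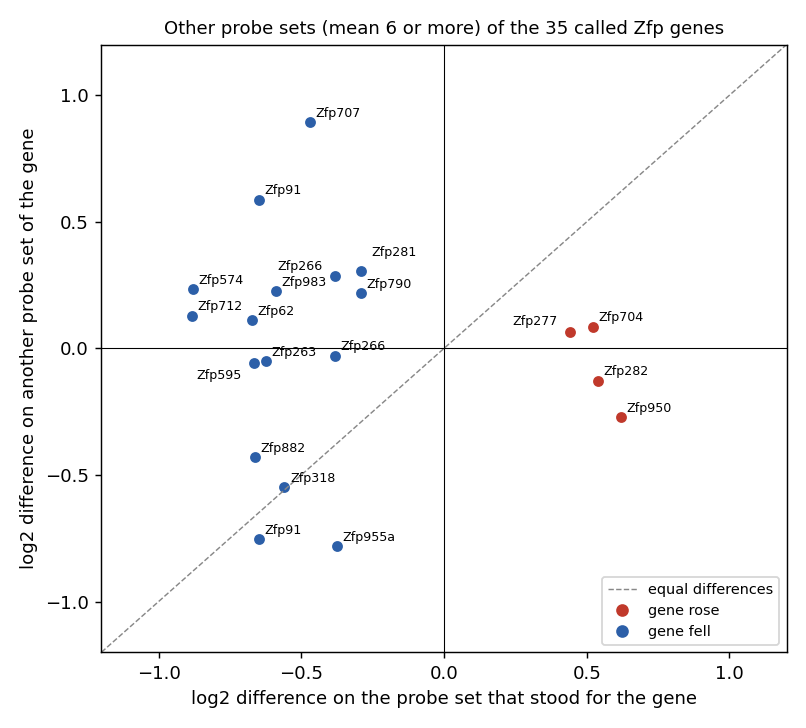
For the called Zfp genes that have another probe set with a mean log2 value of 6 or more, the log2 difference on that probe set (vertical axis) against the difference on the probe set that stood for the gene (horizontal axis). Red points are genes that rose and blue points genes that fell; the dashed line marks equal differences, and among the blue points that of Zfp318 lies close to it.

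Conversely, 12 genes that did not pass on their main probe set had another that did in that fit, 10 lower and 2 higher. They were 13.6% of the 88 such genes with another probe set above the filter, 11.4% lower and 2.27% higher. Over all genes tested the share was 15.4% of 4505, 7.81% lower and 7.88% higher. Zfp568, a KRAB repressor of a placental Igf2 transcript, differed by -0.13 on its main probe set and by -1.24 on the second (8.35 to 7.10, limma adjusted p = 0.00727). Zfp322a differed by -0.06 on the main and by -0.56 on the other (11.15 to 10.59, limma adjusted p = 0.00532). Zfp24 and Zfp148 differed by -0.09 and 0.07 on the main probe set, and each had another that was lower, with differences of -0.76 and -0.45. Zfp267 had a probe set that was higher by 1.38 (5.08 to 6.46, limma adjusted p = 0.0213). Zfp322a, Zfp24, Zfp148 and Zfp267 were named after their values were seen.

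The RNA-binding Zfp36 family, whose CCCH fingers grip AU-rich elements and bring the CCR4-NOT deadenylase to mRNAs, had 3 expressed members and none passed. Zfp36l2 read 13.80, 13.91, 14.34 and 14.16 in control and 14.16, 14.26, 14.40 and 14.59 in menin-deficient replicates (difference 0.30, SE 0.14, limma adjusted p = 0.177). Zfp36l1 read 13.80, 13.55, 13.48 and 13.63 and then 13.69, 13.48, 13.59 and 13.41 (difference -0.07, SE 0.09, limma adjusted p = 0.582). Its second probe set differed by -0.62 (8.54 to 7.92, limma adjusted p = 0.0809 in the fit of all probe sets). Zfp36 itself, tristetraprolin, read 11.54, 11.59, 11.51 and 11.86 and then 11.20, 11.36, 11.75 and 11.54 (difference -0.16, SE 0.13, limma adjusted p = 0.427). On the main probe sets the groups overlapped in all 3.

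None of 9 further genes of RNA and ribosome factors passed, with a median difference of -0.100. Zfp593, a factor of large ribosomal subunit assembly, came closest at -0.47 (limma adjusted p = 0.0714), and after centring it was lower, with a difference of -0.60 (limma adjusted p = 0.0428). It was read on an _x_at probe set, and without such probe sets the difference was 0.27 (limma adjusted p = 0.191). Zfp622, a maturation factor of the large ribosomal subunit, differed by -0.10, Zfp326, which couples elongation with splicing, by -0.09, and Zfp830 by -0.12 (limma adjusted p = 0.276, 0.265 and 0.138).

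Of 15 genes of broadly used DNA-binding or chromatin-bound regulators 1 fell, Zfp281, or 6.67% against 5.17% lower over all genes tested. The other 14 did not pass, and the median difference over the 15 was 0.062. Zfp518b, a partner of the methyltransferase Ehmt2, differed by 0.40 with groups apart (limma adjusted p = 0.0504). Zfp827, which brings the NuRD complex to telomeres, differed by 0.27 and Zfp451, a SUMO ligase, by 0.30 (limma adjusted p = 0.138 and 0.217). Of 8 genes with known roles in lymphocytes 3 fell, Zfp91, Zfp318 and Zfp281, or 37.5% against 5.17% lower over all genes tested. The median difference over the 8 was -0.092. The list was chosen with earlier results of these data known, and the calls of Zfp318 and Zfp281 were lost on leaving out most single arrays, as given above. After centring the same 3 were lower, with 8.17% lower over all genes tested. Centring takes 0.13 off every difference and so enlarges falls, so it could hardly lose these calls. Zfp36l2, described above, was among the 5 on that list that did not pass.

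Of 24 genes listed as KRAB proteins, 3 fell (Zfp180, Zfp595 and Zfp809) and 1 rose (Zfp764). These were 16.7% in all, against 21.3% over all genes tested, and the median difference of the list was 0.051. Outside that list 14 of 215 rose and 17 fell, 14.4% in all, with a median of 0.076. The list holds few of the KRAB proteins of the mouse, so the 215 include many more. Among 6 KRAB genes known from imprinting and retroelement silencing, Zfp809 fell, or 16.7% against 5.17% lower over all genes tested, and 5 did not pass. Of those, Zfp445, a keeper of imprints, differed by 0.06 (14.00 to 14.05), Zfp961 by 0.14 and Zfp429 by -0.41 with a wide control group (SD 0.689). Zfp568 differed by -0.13 on its main probe set, and its lower second probe set is given above.

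The corepressor machinery of KRAB proteins changed in 2 of 24 genes, 8.33% against 21.3% called over all genes tested. Its median difference was 0.058. Daxx, a histone chaperone, rose 1.21-fold and Dnmt3a, a DNA methyltransferase, 1.29-fold (limma adjusted p = 0.023 and 0.027), and after centring neither passed. The call of Daxx was also lost without control replicate 4 or menin-deficient replicate 2 or 4 (0.26 to 0.28), and that of Dnmt3a without any array except control replicate 3 or menin-deficient replicate 1 (0.31 to 0.38). Trim28, the scaffold that KRAB boxes bind, differed by 0.12 (SE 0.14, limma adjusted p = 0.575), Setdb1 by 0.41 (SE 0.18, limma adjusted p = 0.148), Chd3 of the NuRD complex by 0.45 (limma adjusted p = 0.0634) and Hdac1 by 0.20 (limma adjusted p = 0.0774). Of 14 CCR4-NOT genes and partners 1 fell, or 7.14% against 5.17% lower over all genes tested. It was the subunit Cnot2 (1.24-fold, limma adjusted p = 0.00874), on an _x_at probe set. On another Cnot2 probe set the difference was 0.28 the other way (limma adjusted p = 0.0164 without _x_at and _s_at probe sets). Cnot8, Cnot11 and Cnot6l differed by 0.37, 0.38 and 0.10 (limma adjusted p = 0.0933, 0.102 and 0.187).

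Many Zfp genes lie near others of the family. By GRCm38.p6, used here for neighbourhood alone, 56 of the 239 are on chromosome 7, 37 on chromosome 17 and 20 on chromosome 13. Grouping genes less than 1 Mb apart gave 20 runs of at least 3, on 9 chromosomes, which held 133 genes with 8 rises and 15 falls. The 106 genes outside had 7 rises and 5 falls. Over all genes tested 16.2% rose and 5.17% fell, and the difference between genes inside and outside the runs was not tested. In 15 of the 20 runs the genes differed in both directions, 4 runs held both a rise and a fall, and 7 held no call. In the run of 6 genes on chromosome 7 from Zfp180 to Zfp574, both of these fell while Zfp61 rose. In another of 9 genes on that chromosome Zfp553 and Zfp768 fell and Zfp764 rose. On chromosome 17 Zfp229 and Zfp983 fell and Zfp946 rose in a run of 19, and Zfp955a fell and Zfp763 rose in a run of 12. In a run of 3 on chromosome 9 Zfp317 and Zfp266 fell.

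**Figure D4:**
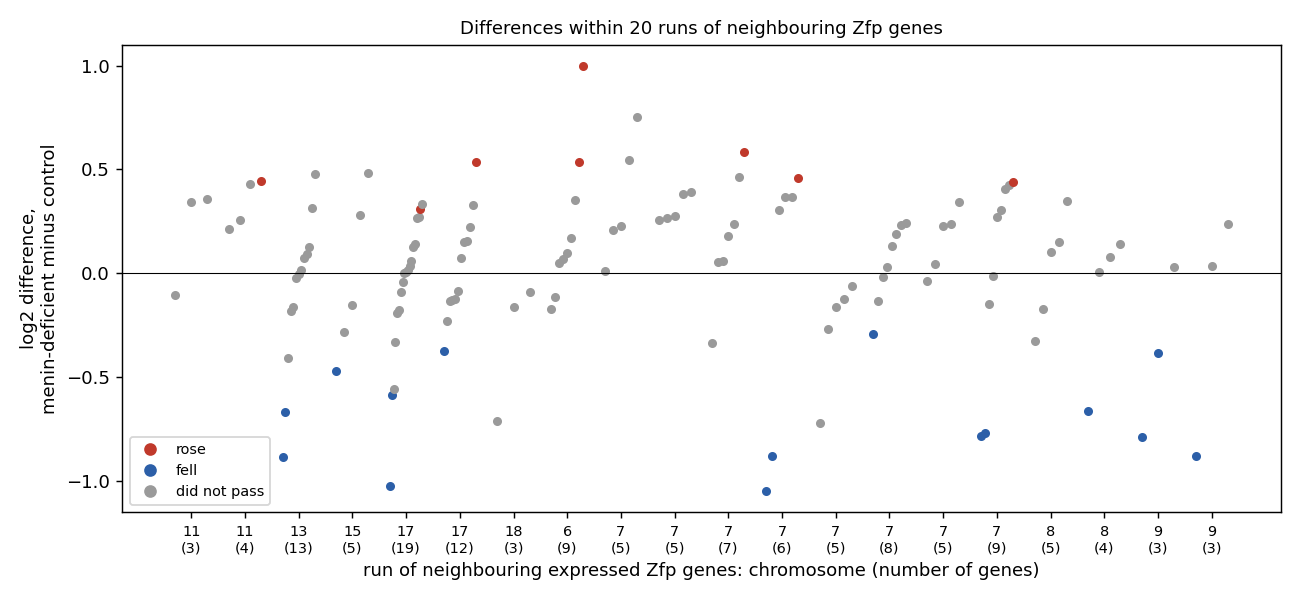
Log2 difference (menin-deficient minus control) of each gene in the 20 runs of at least 3 neighbouring expressed Zfp genes, labelled by chromosome and number of genes. Red points rose, blue points fell and grey points did not pass; in 4 runs, on chromosomes 7 and 17, both red and blue points occur.

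Most Zfp genes gave no call, and of those 204 genes 132 (64.7%) differed by less than 0.25 on the log2 scale in either direction. A difference of at least 0.5 without a call was seen for 9 genes. The largest, named after their values were seen, were Zfp661 (0.89, SE 0.32, limma adjusted p = 0.0927), Zfp579 (0.75, SE 0.24, limma adjusted p = 0.0629), Zfp626 (-0.72, SE 0.27, limma adjusted p = 0.102) and Zfp397 (-0.71, limma adjusted p = 0.102). Of the 8 probe sets of the family with the highest means, that of Zfp263 fell, and 7 did not pass. Among those 7, Zfp36l2 had the largest difference (0.30), and Zfp871 differed by 0.07 (14.15 to 14.22), Zfp330, a nucleolar protein, by 0.05 (13.87 to 13.92) and Zfp131 by -0.11. Less bright probe sets of Zfp871 differed by -0.34 and -0.62 (limma adjusted p = 0.0547 and 0.245 in the fit of all probe sets). Zfp622, Zfp445 and Zfp36l1 are given above. Calls were made in 10 of 80 genes with the lowest probe-set levels, 11 of 79 with middle ones and 14 of 80 with the highest.

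Just inside the level cut were Zfp974 (mean log2 value 5.78), Zfp184 (6.02) and Zfp446 (6.02), and just outside it Zfp449 (5.83), Zfp248 (5.82) and Zfp825 (5.79). Of the 90 symbols outside, 83 reached the cut on no array and 41 had a mean at or near the lowest value of the table. Other zinc finger families showed calls as follows. Of 38 Zbtb genes 3 rose and 5 fell (median difference -0.040), of 16 Zscan and Zkscan genes 2 rose and 0 fell (0.177), and of 19 Klf and Sp genes 1 rose and 1 fell (0.055). In that order 21.1%, 12.5% and 10.5% of the genes were called, against 21.3% over all genes tested. The differences between these families were not tested.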

How the data were processed

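Each of 8 mice gave 1 array. The deposited table holds log2 expression, as its range shows. Per the submitters' processing notes the tools were MAS5 and GCRMA, with no version or role stated. Many probe sets share 1 lowest value, which compresses folds of dim genes. No detection calls were used.

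The table holds 45037 probe sets besides 64 controls. By the platform annotation 34945 have 1 gene symbol, 932 several and 9160 none, and only those with 1 were named. Probe sets above the 40th percentile of their array on at least 4 arrays (26790) entered, each gene being read on its probe set of highest mean. Groups and replicate numbers come from the sample titles. The 4 against 4 arrays were compared with lmFit and eBayes of limma 3.58.1 (R 4.3.3), without covariates, with Benjamini-Hochberg adjustment over 11885 genes and a threshold of 0.05. The number of arrays limits the precision. Correlations over the 239 Zfp genes were 0.966 to 0.989 within and 0.959 to 0.976 between groups. Plots were drawn with matplotlib 3.10.9 (Python 3.11.15).

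The genes and lists were chosen with earlier results of these data known. Without protein sequences, KRAB genes were taken from a list. One gene of it, Zfp397, was left out after the values were seen because its box is unsure, and a count of other finger proteins was not made. Named were the 15 largest rises and falls with groups apart, the 8 brightest probe sets, the Zfp36 family, up to 4 genes of each list with the lowest p, Trim28, Setdb1, Men1 and the genes beside the level cut. Other called genes are given too. Alternatives covered scaling, the filter, the choice of probe set, the variance model, the replicate number as a block, sex, the level cut and each array left out. RefSeq tables (GRCm38.p6) matched all 239 genes by identifier.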

Additional observations from a re-analysis of the deposited data

Results flagged for a closer look

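In 108 groups of 4 arrays (54 named Zfp genes, 2 groups each), 7 had an array far from the other 3. Chance flags about 1 in 20 groups. Control replicate 3 was high in Zfp62 (10.59, others 10.39), low in Zfp830 (11.25, others 11.34 to 11.35) and low in Zfp91 (13.32, others 13.59 to 13.61). Control replicate 2 was low in Zfp763 (9.36, others 9.63 to 9.66). Menin-deficient replicate 2 was low in Zfp180 (8.17, others 8.62 to 8.71) and high in Zfp277 (12.59, others 12.30 to 12.34). Menin-deficient replicate 3 was high in Zfp768 (8.02, others 7.33 to 7.43). In Zfp62, Zfp763, Zfp180 and Zfp277 the array that stood apart lay farther from the opposite group than the others of its own group, and in Zfp91, Zfp830 and Zfp768 it lay nearer.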

How the results depend on the processing

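The count of changed Zfp genes, 35, was 23 with no filter on low values, 23 with the mean of the probe sets of a gene and 19 with the replicate number as a block, and 20 to 35 with 1 array left out. Under the other alternatives it lay within 1.5 times. Over all genes 2536 changed, 1673 with no filter, 1328 with the block and 1413 to 2269 with 1 array left out. Of the 24 KRAB genes 4 changed, 2 with the block and 3 to 4 with 1 array left out. Of 38 partner genes 3 changed, 1 after quantile normalization, 1 after centring, 6 with array weights, 5 with sex as a covariate and 1 to 7 with 1 array left out. Males, told by Xist and Eif2s3y, were 1 of the control and 2 of the menin-deficient mice. Same-numbered arrays did not deviate together (correlations of -0.11, -0.31, -0.17 and 0.05 for numbers 1 to 4). The labels do not say whether equal numbers share a litter or day, and these correlations cannot settle it. The fit with the block, which made fewer calls, therefore stands as an alternative to the main one. Directions turned for Zfp712 and Zfp707 without _x_at and _s_at probe sets (0.13 and 0.89), for Zfp281 and Zfp707 with the mean of the probe sets (0.01 and 0.21) and for Cnot2 without _x_at and _s_at probe sets (0.28). Without _x_at and _s_at probe sets another probe set stood for the gene, and the mean includes the main one. Of the 35 calls, 5 held under every alternative, 16 were lost or turned under 1 to 5, 3 under 6 to 9 and 11 under 10 or more of 19 (18 for Zfp446 and Zfp764). Dim genes near the lowest value have only approximate folds.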
